A study of Homo sapiens with 9 samples.

Results

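The TRIM set comprised the 68 genes of a pooled sgRNA screen whose symbol begins with TRIM followed by a digit, out of 1117 genes in the deposited table. Membership was set by the name alone and used no measured value. Each of the 68 genes was targeted by 10 guides, so that 680 of the 11170 guides of the screen (6.09%) belonged to the family. All 68 symbols are current RefSeq symbols.

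TRIM proteins share an N-terminal tripartite motif of a RING domain, 1 or more B-boxes and a coiled coil, and differ in what follows it. The RING recruits a ubiquitin-charged E2 enzyme and makes most members E3 ubiquitin ligases, while the C-terminal part (a PRY-SPRY, NHL, COS or PHD-bromodomain module) selects the substrate. Members restrict viruses and tune interferon signalling, read and silence chromatin, organise microtubules, and bind RNA. A few lack a RING.

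The screen was run in U251, an established human glioma line, in cells that stably expressed sgRNAs and were grown in DMEM with serum. Cells were left untreated or exposed for 72 hours to temozolomide, an alkylating drug used against glioblastoma, whose main cytotoxic lesion is a methylated guanine in DNA. In such a screen the count of a guide in the sequenced DNA follows the number of cells that carry it. The series asked which guides differ in abundance between drug and control. The 3 groups were 0, 200 and 1500 µM temozolomide with 3 libraries each, numbered 1 to 3. The sample titles give the doses in µM whereas nM stands beside these figures in the treatment protocol. The unit is therefore not settled, and the titles' unit serves here as the name of the groups. All groups share the cell line, the guide pool and the medium. Which nuclease and vector were used, whether cells came from 1 clone and whether the numbers mark separate cultures was not given in the sources used here. Hence p-values reflect the spread of these libraries alone, and that spread may be technical. A library of the plasmid pool or of cells before treatment was not analysed here.

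The 9 libraries held 1852340 to 2790563 counts, a mean of 166 to 250 per guide. TRIM guides were somewhat better represented than the pool as a whole. Between 5.59% and 11.2% of them were at a count of 0 in a library, against 10.0% to 15.2% of all guides, and their median was 43.9 to 55.6 normalised CPM against 40.2 to 45.3 for all guides. Normalised CPM are counts scaled to a common library total after correction by trimmed means of M values (TMM). For tests, guides needed 10 or more counts in at least 3 of the 9 libraries, and 662 TRIM guides (97.4%) met this against 92.5% of all guides. The remaining 18 TRIM guides did not, and 2 of them, TRIM24.10 and TRIM61.2, were at 0 in all 9 libraries. Guide sequences and target positions are not printed here.

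TRIM guides together held 6.31% ± 0.544 of all counts at 0 µM, 6.27% ± 0.505 at 200 µM and 5.76% ± 0.202 at 1500 µM (mean ± SD, n = 3 each). In replicates 1 to 3 the share was 5.76%, 6.84% and 6.34% without drug, 6.05%, 6.85% and 5.92% with 200 µM, then 5.64%, 5.65% and 5.99% with 1500 µM. The ranges overlapped for every pair of doses, although the share was lower at 1500 than at 0 µM in each of the 3 same-numbered pairs. The test that follows does not use this pairing. The difference of 1500 from 0 µM was -0.554 percentage points (exact two-sided permutation test, p = 0.2), where 3 against 3 libraries cannot give less than 0.1. It was -0.289 without replicate 2 of 0 µM and -0.833 without replicate 1 of 0 µM. At 1500 µM the most abundant guide of each library was UBE2A.7, which is no TRIM guide and took 4.97% to 18.6% of the counts, whereas the most abundant guide took 0.367% to 2.51% at 0 µM and 0.410% to 2.60% at 200 µM. Without the most abundant guide of each gene of the screen the difference turned to 0.158 percentage points, with shares of 6.69% at 0 µM and 6.84% at 1500 µM.

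The level of a gene is taken here as the summed normalised CPM of its 10 guides. It describes how many cells carried a guide to the gene, not how strongly the gene is expressed, and without a plasmid library it cannot be told apart from the make-up of the pool. At 0 µM the 68 levels ran from 187 (TRIM49B) to 1755 (TRIM69), with a median of 953 against 909 over all genes. The 5 highest were TRIM69 at 1755 ± 643, TRIM27 at 1752 ± 147, TRIM17 at 1701 ± 885, TRIM6 at 1624 ± 36.6 and TRIM56 at 1589 ± 615 normalised CPM (mean ± SD, n = 3). The SDs of TRIM69, TRIM17 and TRIM56 exceeded every gap between these 5 means, so that their order is not fixed by the data. TRIM27, a nuclear and endosomal ligase, and TRIM6, which makes unanchored ubiquitin chains in interferon signalling, were the steadiest of the 5. TRIM27 stood at 1851, 1583 and 1821 without drug, 1822, 1462 and 1773 with 200 µM, then 1705, 1475 and 1632 with 1500 µM. Its 9 values overlapped between all doses and replicate 2 was the lowest library at each dose.

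The 5 lowest levels at 0 µM belonged to TRIM49B at 187 ± 72.7, TRIM61 at 332 ± 44.1, TRIM48 at 385 ± 50.9, TRIM65 at 408 ± 161 and TRIM51 at 409 ± 157 normalised CPM. Of these, TRIM49B, TRIM61, TRIM48 and TRIM51 belong to clusters of closely similar gene copies, whereas TRIM65, a ligase of the RNA sensor MDA5, does not. The 15 measured genes of such clusters had a median of 607 normalised CPM, and 13 of them lay below the family median, compared with 21 of the 53 other members, whose median was 1047. Fewer guides of TRIM48 (7 of 10), TRIM61 (7 of 10) and TRIM59 (8 of 10) passed the count filter than of any other member, which kept 9 or 10. Because a guide to 1 copy can match another and the table does not show how such reads were assigned, counts of these 15 genes are uncertain.

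**Figure D1:**
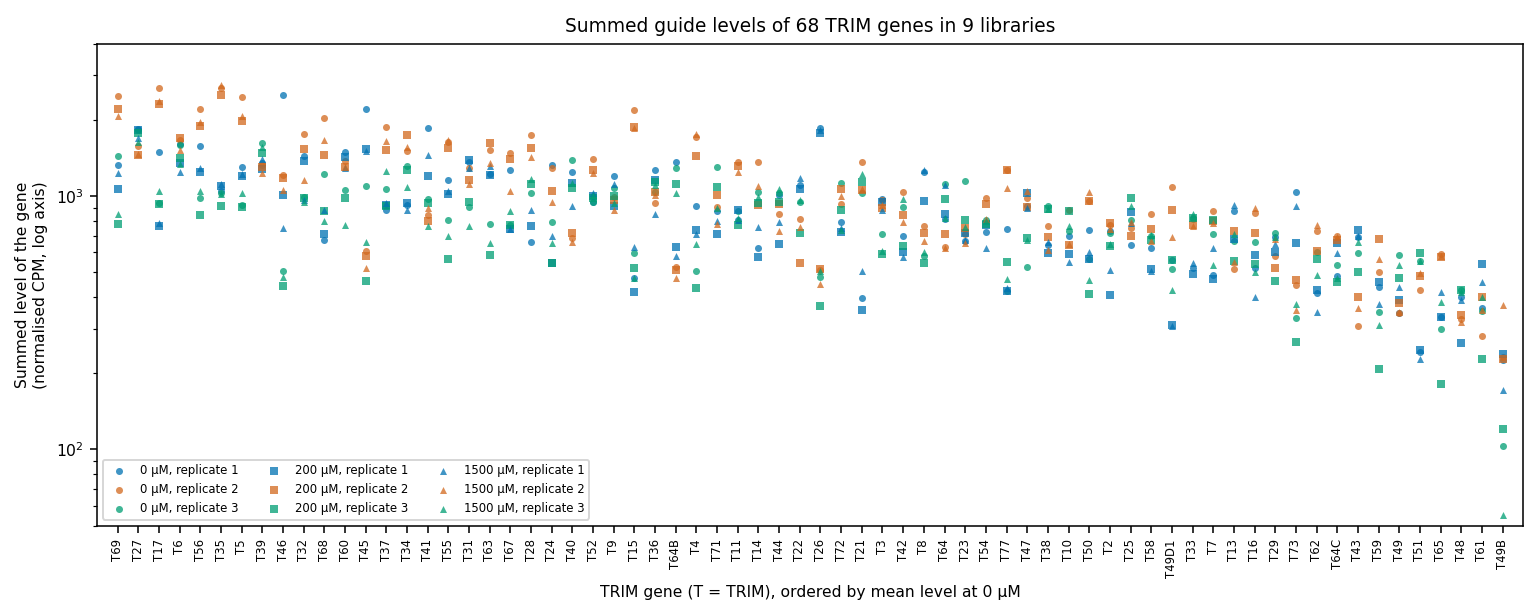
Summed guide level of each of the 68 TRIM genes (normalised CPM, log axis) in the 9 libraries, ordered by the mean at 0 µM, with the dose as the marker shape and the replicate number as the colour. The markers of 1 gene cluster by colour more than by shape, and the means at 0 µM fall from 1755 for TRIM69 to 187 for TRIM49B.

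Levels of a TRIM gene often differed between libraries of the same dose. The highest of the 3 libraries at 0 µM exceeded the lowest by more than 2-fold in 25 of the 68 genes (36.8%, against 48.1% of all genes), and by 4.93-fold for TRIM46, 4.62-fold for TRIM15 and 3.87-fold for TRIM26. The differences followed the replicate number across doses. On the log2 scale, the replicate number accounted for a median of 80.8% of the variance of a TRIM gene over the 9 libraries (range 7.44% to 99.2%) and the dose for 6.35% (range 0.0318% to 65.4%). These medians were 81.2% and 6.47% over all 1117 genes. The replicate share was the larger in 63 of 68 TRIM genes (92.6%) and in 92.6% of all genes, and the same replicate number was highest at all 3 doses in 47 of 68 (69.1%, against 66.5% of all genes).

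TRIM35 and TRIM26 are examples, with the highest and the third highest replicate share. TRIM35, a ligase of the PRY-SPRY class, stood at 1052, 2681 and 1028 without drug, 1096, 2504 and 919 with 200 µM, then 1114, 2752 and 1017 with 1500 µM. Replicate 2 was more than 2-fold above the others at every dose, and 99.2% of the variance lay between replicate numbers. TRIM26, an antiviral ligase encoded near the major histocompatibility complex, stood at 1856, 513 and 479.5 without drug, 1778, 517 and 370.3 with 200 µM, then 1822, 452 and 508 with 1500 µM. Here replicate 1 was high at every dose and the doses did not differ beyond that spread. A single guide, TRIM26.6, carried it, with 1293, 11.5 and 38.9 normalised CPM without drug, 1239, 6.21 and 55.0 with 200 µM, then 1197, 5.25 and 76.8 with 1500 µM. In 5 genes the dose share was the larger: TRIM29 (65.4% against 7.44%), TRIM6 (47.3% against 40.6%), TRIM24 (42.8% against 41.8%), TRIM9 (35.3% against 28.1%) and TRIM36 (19.8% against 13.2%).

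**Figure D2:**
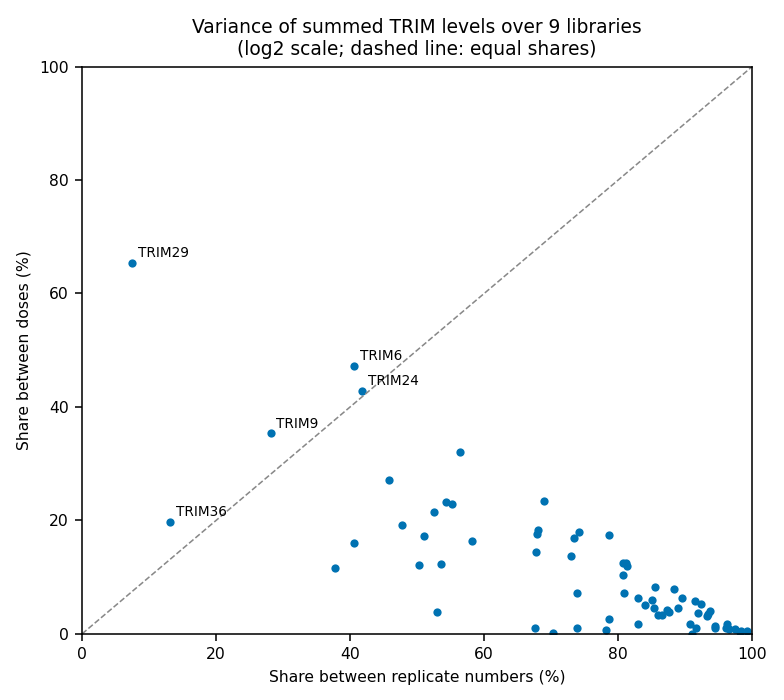
Share of the variance of each TRIM gene's level over 9 libraries (log2 scale) that lies between replicate numbers (horizontal axis, %) and between doses (vertical axis, %), 1 point per gene. Of the 68 points, 63 lie below the dashed line of equal shares, and TRIM29, TRIM6, TRIM24, TRIM9 and TRIM36 lie above it.

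Same-numbered libraries therefore deviate together, for TRIM guides as for all guides. Results with the replicate number as a block in the fit are given where they alter a count or a call.

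No TRIM gene passed the test in any comparison. On counts summed over guides, edgeR's quasi-likelihood test with Benjamini-Hochberg adjustment called 0 of the 68 genes at an adjusted p of 0.05 in each comparison, where it called 0% of all 1117 genes. None of the 68 reached an unadjusted p of 0.05 either. The lowest adjusted p over the family was 0.9996 for 1500 against 0 µM, 0.998 for 200 against 0 µM and 0.999 for 1500 against 200 µM. With the replicate block edgeR again called none, with a lowest adjusted p of 0.639, 0.811 and 0.552 in the same order, and 0.0895%, 0% and 0% of all genes were called by it. DESeq2 called no TRIM gene either, where it called 0.0895%, 0% and 0.0895% of all genes without the block and 0.269%, 0.0895% and 2.15% with it. The last of these shares is 24 genes, none of them a TRIM gene. From limma no gene of the table was called, with or without the block. The lowest adjusted p of a TRIM gene in all these fits was that of TRIM32 for 1500 against 200 µM (adjusted p = 0.0506, DESeq2 Wald test with the block).

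With the block, 4 TRIM genes had an unadjusted p under 0.05 for 1500 against 0 µM, where 6.62% of all genes did: TRIM24, TRIM45, TRIM49D1 and TRIM64B, all lower at 1500 µM. For 200 against 0 µM there were 2, TRIM24 and TRIM45, both lower at 200 µM, against 5.37% of all genes. For 1500 against 200 µM there were 6, against 6.62% of all genes: TRIM4, TRIM14, TRIM22, TRIM29 and TRIM65, higher at 1500 µM, and TRIM32, lower. These shares of the 68 (5.88%, 2.94% and 8.82%) lie near those of the whole table.

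The medians of the family lay near those of the whole screen. For each gene, the median of its guides' edgeR log2 fold changes was taken. For 1500 against 0 µM the median of these over the 68 genes was -0.08 and over all genes -0.08, and 46 of 68 lay below 0 (67.6%, against 65.0% of all genes). Between 200 and 0 µM the 2 medians were -0.11 and -0.09, with 53 of 68 below 0 (77.9%, against 67.4%). Between 1500 and 200 µM they were 0.08 and 0.01, with 24 of 68 below 0 (35.3%, against 47.2%). All genes shared the small negative median against 0 µM. With the block the family median for 1500 against 0 µM moved from -0.08 to -0.0168, and without replicate 2 of 0 µM it turned to 0.0895. The family median for 1500 against 200 µM turned to -0.0564 without replicate 2 of 1500 µM.

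Directions within same-numbered pairs were also counted. Here a gene's log2 ratio of levels (with 1 CPM added) in each of the 3 pairs was centred on the median of all genes in that pair. In pairs 1 to 3 that median was -0.143, -0.109 and -0.0843 for 1500 against 0 µM. For 200 against 0 µM it was -0.140, -0.0696 and -0.106. Levels given by library are not centred, so a fall from 0 µM includes this shift. For 1500 against 0 µM, 10 TRIM genes were higher in all 3 pairs, where 13.4% of all genes were, namely TRIM13, TRIM25, TRIM29, TRIM35, TRIM43, TRIM47, TRIM48, TRIM51, TRIM61 and TRIM65. The 6 that were lower, against 11.6% of all genes, were TRIM6, TRIM24, TRIM45, TRIM46, TRIM49D1 and TRIM64B. At 200 against 0 µM, 4 were higher (TRIM34, TRIM36, TRIM49B and TRIM51, against 15.0% of all genes) and 8 lower (TRIM4, TRIM15, TRIM24, TRIM29, TRIM42, TRIM55, TRIM56 and TRIM69, against 14.2%). At 1500 against 200 µM, 14 were higher and 7 lower, against 14.3% and 13.9%. As shares of the 68 genes these counts are 14.7% and 8.82%, 5.88% and 11.8%, and 20.6% and 10.3%, so that most lie near or below the share of all genes. The comparisons against 0 µM share the same 3 control libraries, so their lists are not independent.

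**Figure D3:**
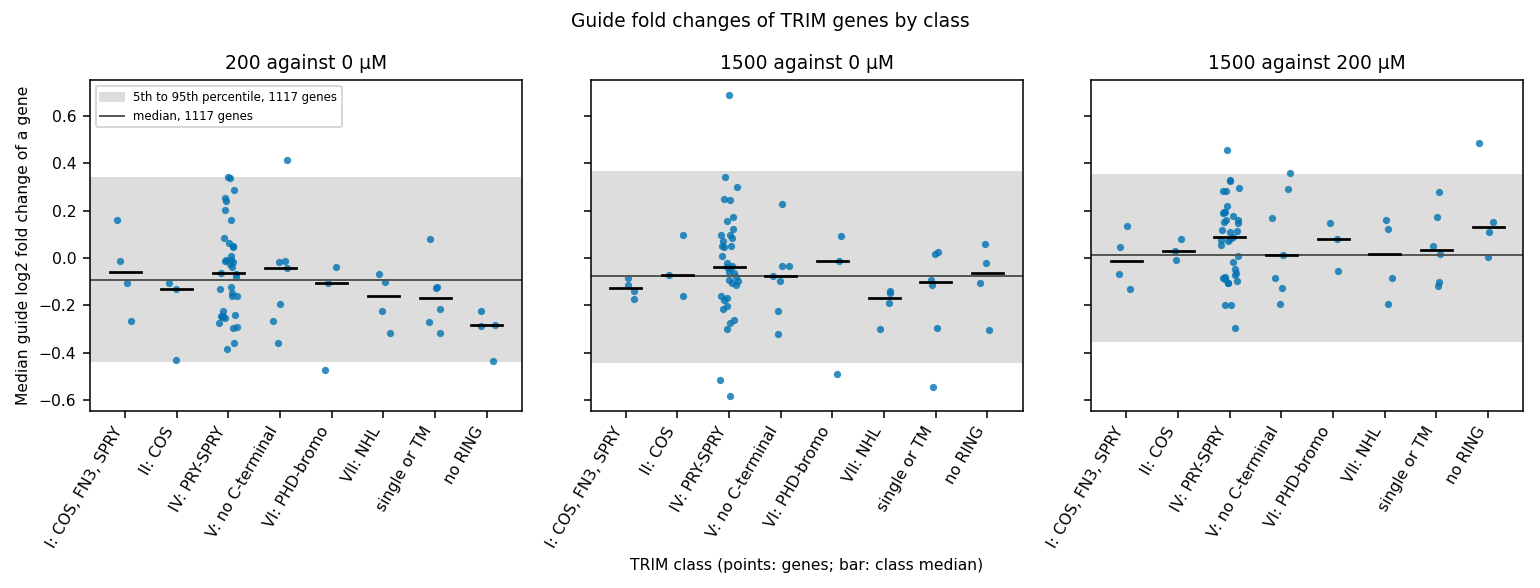
Median guide log2 fold change of each TRIM gene (points) by structural class for the 3 pairs of doses, with the class median (bar), the median of all 1117 genes (line) and their 5th to 95th percentiles (band). Most points of every class lie inside the band. TRIM51 (0.69), TRIM49D1 (-0.58), TRIM23 (-0.54) and TRIM64B (-0.51) are farthest out for 1500 against 0 µM.

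The PHD-bromodomain class holds the 3 chromatin regulators of the family, and they differed from each other. TRIM24, a histone reader, nuclear receptor cofactor and ligase of p53, stood at 1326, 1294 and 791 without drug, 545, 1048 and 544 with 200 µM, then 697, 946 and 654 with 1500 µM normalised CPM. All 3 numbers were lower at both drug doses than at 0 µM, but the groups overlapped, since replicate 3 of 0 µM lay below replicate 2 of either dose. Of its 9 tested guides 8 were lower at 1500 than at 0 µM and 8 were lower at 200 than at 0 µM, with guide medians of -0.49 and -0.47. The summed log2 fold change was -0.44 ± 0.30 for 1500 against 0 µM and -0.58 ± 0.34 for 200 against 0 µM (edgeR, ± SE, n = 3 against 3, adjusted p = 0.9996 and 0.998). With the block the adjusted p was 0.656 and 0.811. Guide TRIM24.3 held 41.6% of the gene's summed level. Without it the values were -0.30 ± 0.33 and -0.44 ± 0.32. In the limma fit on the median over guides of log2 CPM the sign for 1500 against 0 µM turned (0.0353).

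TRIM28, the corepressor that KRAB zinc finger proteins recruit to silence retroelements, stood at 658, 1739 and 1034 without drug, 764, 1558 and 1114 with 200 µM, then 886, 1426 and 1169.8 with 1500 µM. The replicates kept the order 2, 3, 1 at every dose and the group means of 1144, 1145 and 1161 were closer to each other than their SDs of 549, 398 and 270.2. Its summed log2 fold change for 1500 against 0 µM was 0.15 ± 0.39. TRIM33, a SMAD-binding ligase, stood at 520.3, 824 and 809.8 without drug, 494, 769 and 819.6 with 200 µM, then 547, 763 and 852 with 1500 µM. Replicate 1 was the lowest library at each dose, and the fold change was 0.13 ± 0.34 for 1500 against 0 µM and 0.06 ± 0.35 for 200 against 0 µM.

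**Figure D4:**
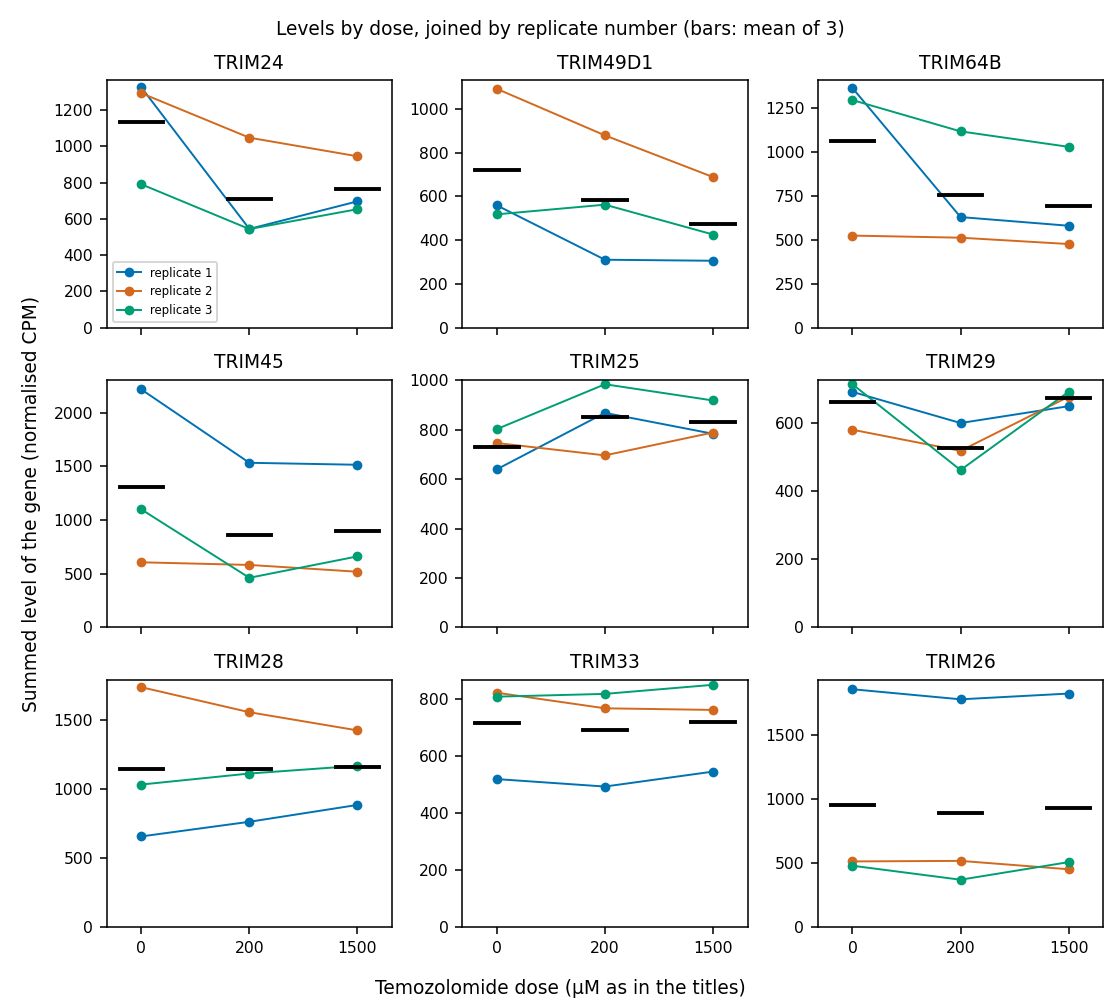
Summed levels (normalised CPM, axes from 0) of 9 TRIM genes at the 3 doses, with lines joining libraries of the same number and bars at the means of 3. The TRIM24 lines all start higher at 0 µM (mean 1137) than they end (mean 765), while the lines of TRIM26 run nearly level, with replicate 1 far above the others.

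The PRY-SPRY class, the largest of the family with 37 measured members, includes most antiviral TRIMs. Its medians were -0.04, -0.06 and 0.09 for 1500 against 0, 200 against 0 and 1500 against 200 µM, with 21, 25 and 13 genes below 0 (65.0%, 67.4% and 47.2% of all genes were). It also held both ends of the family for 1500 against 0 µM: TRIM51 at a guide median of 0.69 and TRIM49D1 at -0.58. TRIM49D1, one of the copy genes, stood at 559, 1092 and 518 without drug, 311, 879 and 563 with 200 µM, then 306, 689 and 426 with 1500 µM. It was lower at 1500 than at 0 µM in each pair and in 9 of 10 guides, but replicate 2 of 1500 µM exceeded replicates 1 and 3 of 0 µM. The summed log2 fold change was -0.48 ± 0.40 (edgeR, adjusted p = 0.9996, and 0.639 with the block). It was -0.14 without replicate 2 of 0 µM, -0.25 without replicate 1 of 1500 µM and -0.78 without replicate 2 of 1500 µM. TRIM51 stood at 243, 428 and 556 without drug, 248, 483 and 596 with 200 µM, then 227, 499 and 555 with 1500 µM. Replicate 1 was the lowest and replicate 3 the highest library at each dose. The summed log2 fold change was 0.17 ± 0.48, with 44.5% of the level in TRIM51.2 and 3 of 9 tested guides lower. It turned to -0.11 without replicate 1 of 0 µM and to -0.14 without replicate 3 of 1500 µM.

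TRIM64B, another copy gene, stood at 1365, 525 and 1296 without drug, 630.1, 513 and 1118 with 200 µM, then 581, 477 and 1030.0 with 1500 µM. Replicates 1 and 3 were lower at both drug doses than at 0 µM, replicate 1 by more, while replicate 2 was low throughout. The summed log2 fold change for 1500 against 0 µM was -0.48 ± 0.49 (adjusted p = 0.9996 with edgeR, 0.739 with the block). Guide TRIM64B.3 moved most, with 872, 81 and 99 counts without drug, 9, 50 and 52 with 200 µM, then 77, 90 and 74 with 1500 µM. Only replicate 1 of 0 µM was high. Its edgeR log2 fold change for 200 against 0 µM was -3.74 ± 1.33, the lowest p among TRIM guides that were lower there.

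TRIM25, which ubiquitinates the RNA sensor RIG-I, was on the higher side at both doses. It stood at 640.3, 746 and 803 without drug, 869, 696 and 984 with 200 µM, then 784, 789 and 919 with 1500 µM. At 1500 µM each library was above its pair, and 7 of 10 guides were higher, but replicate 3 of 0 µM exceeded replicates 1 and 2 of 1500 µM. The summed log2 fold change was 0.31 ± 0.29 for 1500 against 0 µM and 0.33 ± 0.33 for 200 against 0 µM (edgeR, adjusted p = 0.9996 and 0.998). TRIM21, the cytosolic antibody receptor, stood at 398, 1366 and 1031 without drug, 356, 1063 and 1139.5 with 200 µM, then 505, 1071 and 1223 with 1500 µM. Replicate 1 was the lowest library at every dose and the fold change for 1500 against 0 µM was 0.13 ± 0.51.

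TRIM22, an interferon-induced nuclear member, was highest in the class for 1500 against 200 µM with a guide median of 0.45 and 8 of 10 guides higher. It stood at 1108, 817 and 946 without drug, 1069, 543 and 717 with 200 µM, then 1180.1, 754 and 967 with 1500 µM. Each pair was higher at 1500 than at 200 µM, and the groups overlapped, with replicate 1 the highest library at all doses. The summed log2 fold change was 0.32 ± 0.36 and 0.36 ± 0.12 with the block (edgeR, adjusted p = 0.999 and 0.552). Without the block it was 0.0684 when replicate 2 of 200 µM was left out, 0.15 without replicate 1 of 1500 µM, 0.50 without replicate 2 of 1500 µM and 0.62 without replicate 1 of 200 µM. TRIM65 was higher in the same comparison in 7 of 10 guides, with a summed log2 fold change of 0.38 ± 0.41 and 0.48 ± 0.21 with the block (adjusted p = 0.999 and 0.733). It stood at 333, 592 and 299 without drug, 334, 573 and 181 with 200 µM, then 419, 583 and 382 with 1500 µM. Replicate 3 rose most between 200 and 1500 µM and replicate 2 hardly changed. TRIM6 was the only TRIM gene whose levels did not overlap between 1500 and 0 µM. It stood at 1611, 1665 and 1595 without drug, 1354, 1693 and 1415 with 200 µM, then 1248, 1528 and 1336 with 1500 µM. All 3 values at 1500 µM lay below those at 0 µM, as they did in 2.06% of all genes. No TRIM gene was higher without overlap (0.806% of all genes were), and none was higher or lower without overlap for 200 against 0 µM (0.448% and 1.52% of all genes). Centred on the median of all genes, the 3 pairs of TRIM6 were at -0.23, -0.0157 and -0.17, so part of its fall was that of the median gene. For TRIM6 the summed log2 fold change was -0.12 ± 0.29.

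Across the antiviral and innate immune list, which draws 14 members from several classes, 11 genes lay below 0 and 3 above for 1500 against 0 µM. Their median was -0.09, and over all genes 65.0% lay below 0 with a median of -0.08. For 200 against 0 µM 9 lay below 0 with a median of -0.07 (67.4% and -0.09 over all genes). For 1500 against 200 µM 6 did, with a median of 0.06 (47.2% and 0.01 over all genes). The extremes for 1500 against 0 µM were TRIM23 at -0.54 and TRIM25 at 0.34. TRIM23, which carries an ARF GTPase domain, stood at 666, 709.9 and 1152 without drug, 714, 748 and 802 with 200 µM, then 672, 655 and 753 with 1500 µM. Replicate 3 of 0 µM was the only high library, and the summed log2 fold change of -0.18 ± 0.35 was smaller than its error. TRIM31, a ligase of the mitochondrial adaptor MAVS, had a guide median of -0.32 but a summed log2 fold change of -0.04 ± 0.31.

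The 4 measured members without a RING, TRIM14, TRIM16, TRIM29 and TRIM44, all had guide medians below 0 for 200 against 0 µM (median -0.28), as 67.4% of all genes did. For 1500 against 200 µM all 4 lay above 0 (median 0.13), as 590 of all 1117 genes did, with TRIM16 at only 0.00623. These comparisons share the 200 µM libraries, so the second direction is not independent of the first. TRIM29, a coiled-coil protein linked to the DNA damage response, was lowest at 200 µM. It stood at 692, 581 and 714 without drug, 601, 519 and 462 with 200 µM, then 650.0, 678 and 692 with 1500 µM. The values at 200 µM did not overlap those at 1500 µM, as in 0.895% of all genes, but overlapped those at 0 µM. No TRIM gene was lower without overlap in this comparison, against 0.358% of all genes. For 1500 against 200 µM 9 of its 10 guides were higher and the summed log2 fold change was 0.36 ± 0.26 (edgeR, adjusted p = 0.999), and 0.37 ± 0.15 with the block (adjusted p = 0.733). For 200 against 0 µM it was -0.23 ± 0.29.

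The 4 members with NHL repeats, which bind RNA or substrates, all had guide medians below 0 against 0 µM, from -0.14 (TRIM32) to -0.30 (TRIM71) for 1500 µM and from -0.07 (TRIM3) to -0.31 (TRIM2) for 200 µM. Among all genes 65.0% and 67.4% lay below 0. TRIM32, whose loss causes a limb-girdle muscular dystrophy, stood at 1444, 1759 and 996 without drug, 1376, 1539 and 985 with 200 µM, then 964, 1154 and 951 with 1500 µM. Replicates 1 and 2 were lower at 1500 µM than at either other dose, while replicate 3 kept its level. For 1500 against 200 µM the summed log2 fold change was -0.33 ± 0.26 and -0.32 ± 0.11 with the block (edgeR, adjusted p = 0.999 and 0.618). It rested on TRIM32.10, which held 34.3% of the level, and became -0.15 ± 0.28 without it. TRIM71, a stem cell RNA-binding member, had 9 of 10 guides lower for 1500 against 0 µM with a summed log2 fold change of -0.21 ± 0.32. TRIM2 stood at 729, 767 and 719 without drug, 409, 786 and 635 with 200 µM, then 509.6, 745 and 649 with 1500 µM, with replicate 1 the lowest library at both drug doses.

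Several members bind microtubules through a COS box. TRIM9, TRIM46 and TRIM67, known from neurons, and TRIM36 had guide medians of -0.17 to -0.08 for 1500 against 0 µM. TRIM46, which bundles microtubules at the axon initial segment, had the largest summed log2 fold change of the family there, -0.76 ± 0.53, yet it came from 1 guide in 1 library. TRIM46.2 had 3070, 214 and 155 counts without drug, 679, 123 and 340 with 200 µM, then 538, 163 and 181 with 1500 µM, and without that guide the value was -0.09 ± 0.42. The muscle ring finger genes TRIM54, TRIM55 and TRIM63 and the membrane repair gene TRIM72 had guide medians of -0.16 to 0.30 for 1500 against 0 µM. For 200 against 0 µM all of them lay below 0, as 67.4% of all genes did, from -0.43 (TRIM55) to -0.04 (TRIM72).

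Members of class V, which have no recognised C-terminal domain, had medians of -0.07, -0.04 and 0.01 in the 3 comparisons. Against 0 µM 6 of 7 lay below 0 at both doses (65.0% of all genes at 1500 µM and 67.4% at 200 µM). The exception at both doses was TRIM61 (0.23 and 0.41), a copy gene with 7 tested guides. It stood at 362, 281 and 352 without drug, 539, 402 and 228 with 200 µM, then 457, 356 and 399.7 with 1500 µM. Each pair was higher at 1500 than at 0 µM, the groups overlapped, and the summed log2 fold change for 1500 against 0 µM was 0.41 ± 0.34.

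Among the classes with a single domain architecture each, TRIM37 and TRIM45 are given in every library. TRIM37, a MATH-domain ligase that controls centrosome assembly, stood at 883, 1883 and 1070.3 without drug, 926, 1528 and 918 with 200 µM, then 943, 1653 and 1255 with 1500 µM. Replicate 2 was the highest library at each dose and the fold change for 1500 against 0 µM was 0.14 ± 0.37. TRIM45, which carries a filamin-type domain, stood at 2218, 607 and 1100.3 without drug, 1534, 583 and 463 with 200 µM, then 1516, 519.5 and 662 with 1500 µM. Each pair was lower at 1500 than at 0 µM, but replicate 2 of 0 µM lay below 2 of the 3 libraries at 1500 µM. The summed log2 fold change was -0.41 ± 0.57, and -0.38 ± 0.16 with the block (edgeR, adjusted p = 0.9996 and 0.736). Without TRIM45.10, which held 37.3% of the level, it was -0.07 ± 0.54, and without replicate 1 of 0 µM it turned to 0.16.

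At the level of single guides, edgeR's quasi-likelihood test called 0 of the 662 TRIM guides in each comparison, where it called 0% of all 10337 guides. Without the block 1 TRIM guide had an unadjusted p under 0.05 in each comparison (0.151% of the 662), against 0.203%, 0.135% and 0.203% of all guides for 1500 against 0, 200 against 0 and 1500 against 200 µM. With the block 11, 9 and 14 TRIM guides did (1.66%, 1.36% and 2.11%), against 2.61%, 2.23% and 1.95% of all guides, and again 0% of all guides were called. DESeq2 without the block called no guide of the table, and 2, 0 and 1 TRIM guides had an unadjusted p under 0.05, against 0.590%, 0.387% and 0.319% of all guides. DESeq2 with the block called 1 TRIM guide for 1500 against 0 µM (0.0580% of all guides were called), none for 200 against 0 µM (0.0580% of all guides) and 3 for 1500 against 200 µM (0.416% of all guides). Its unadjusted p was under 0.05 for 22, 15 and 64 TRIM guides (3.32%, 2.27% and 9.67%), against 4.67%, 4.09% and 10.2% of all guides. The TRIM shares at an unadjusted p under 0.05 were thus below those of all guides or close to them in each fit. None of these 4 guides was called by edgeR with the block, which gave each an adjusted p of at least 0.999.

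The guide called for 1500 against 0 µM was TRIM45.10, with 1585, 93 and 1592 counts without drug, 1485, 127 and 323 with 200 µM, then 1339, 35 and 730 with 1500 µM. Replicates 1 and 3 held most of it, all 3 pairs were lower at 1500 µM, and the groups overlapped. Its log2 fold change with the block was -1.28 ± 0.28 by DESeq2 (adjusted p = 0.00992) and -1.27 ± 0.30 by edgeR (adjusted p = 0.999). The other 9 guides of TRIM45 did not share it, since 5 were lower and 4 higher at 1500 µM.

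Among the guides called for 1500 against 200 µM, TRIM27.6 was lower at 1500 µM, with 284, 349 and 969 counts without drug, 824, 571 and 1554 with 200 µM, then 564, 353 and 920 with 1500 µM. Its normalised CPM were 173, 168 and 477 without drug, 364, 296 and 548 with 200 µM, then 202, 168 and 386 with 1500 µM. The 200 µM libraries were high in every pair, so that 1500 µM and 0 µM were nearly level, and the log2 fold change was -0.74 ± 0.17 (DESeq2 with the block, adjusted p = 0.0162). The other 9 guides of TRIM27, the gene with the second highest level, split into 4 lower and 5 higher. TRIM72.10 was also lower at 1500 µM, with 188, 469 and 240 counts without drug, 266, 585 and 336 with 200 µM, then 183, 438 and 142 with 1500 µM and a log2 fold change of -0.80 ± 0.23 (adjusted p = 0.0489). TRIM72 as a gene had a guide median of 0.33 in the same comparison but a summed log2 fold change of -0.10 ± 0.26 (edgeR). TRIM69.4 was higher at 1500 µM, with 582, 954 and 472 counts without drug, 337, 736 and 335 with 200 µM, then 822, 1091 and 464 with 1500 µM and a log2 fold change of 0.69 ± 0.19 (adjusted p = 0.0489). Its level at 1500 µM was back near that at 0 µM.

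The guides of lowest edgeR p without the block included rare ones. TRIM69.10 had 0, 0 and 0 counts without drug, 0, 19 and 0 with 200 µM, then 20, 20 and 12 with 1500 µM, and TRIM33.2 had 26, 2 and 0 counts without drug, 0, 0 and 0 with 200 µM, then 27, 15 and 13 with 1500 µM. The first was at 0 in all libraries of 0 µM and the second in all libraries of 200 µM, so that no fold is given. TRIM36.1 was higher at both drug doses, with 29, 28 and 28 counts without drug, 108, 54 and 140 with 200 µM, then 165, 57 and 119 with 1500 µM. All 3 libraries at 0 µM lay below all 6 drug libraries. This guide was picked for its low p, and how many other guides separate in this way was not counted. Its log2 fold change was 1.58 ± 0.83 for 1500 against 0 µM and 1.47 ± 0.90 for 200 against 0 µM, while the gene had guide medians of -0.17 and 0.16. Of the 10 guides of TRIM36, 4 were higher at 1500 than at 0 µM and 7 were higher at 200 than at 0 µM. TRIM62.1 had 20, 74 and 71 counts without drug, 91, 94 and 239 with 200 µM, then 153, 225 and 133 with 1500 µM, and TRIM17.2 had 1208, 419 and 186 counts without drug, 263, 169 and 274 with 200 µM, then 286, 195 and 241 with 1500 µM. The first was lower and the second higher in replicate 1 of 0 µM than in any other library. TRIM44.9, TRIM65.1, TRIM24.6, TRIM72.7, TRIM31.2 and TRIM56.7 completed the list, with edgeR log2 fold changes of 1.29 ± 0.70, 1.63 ± 0.91, -2.22 ± 1.46, -0.92 ± 0.70 and -0.80 ± 0.64 for 1500 against 200 µM and 1.48 ± 0.99 for 200 against 0 µM.

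**Figure D5:**
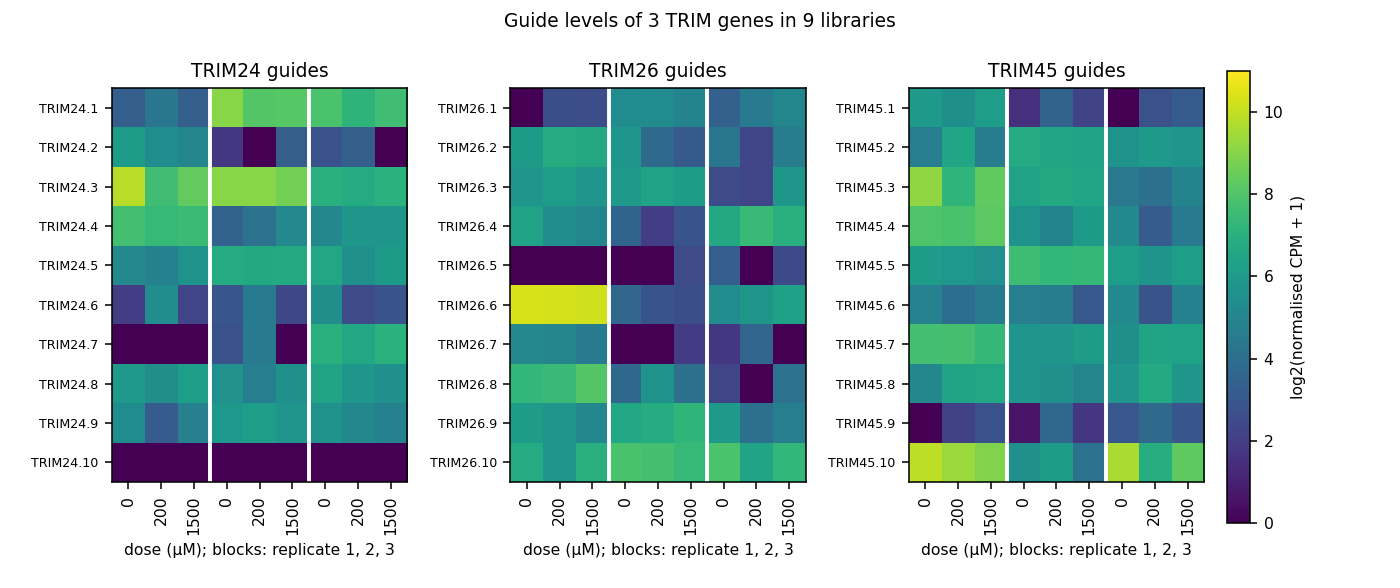
Level of each guide of TRIM24, TRIM26 and TRIM45 (rows) in the 9 libraries (columns, ordered by replicate number and then dose) as log2 of normalised CPM plus 1. Most rows keep their colour within a replicate block and change between blocks. TRIM26.6 is bright in replicate 1 only, TRIM45.10 in replicates 1 and 3, and TRIM24.10 is at 0 throughout.

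Guides of 1 gene often differed in direction. For 1500 against 0 µM the guide log2 fold changes of TRIM24 ran from -1.84 to 0.09, those of TRIM49D1 from -1.48 to 0.51 and those of TRIM25 from -0.38 to 0.71. For TRIM28 they ran from -0.47 to 0.91. No member had all its guides on 1 side of 0 in this comparison, TRIM49D1 and TRIM71 coming closest with 9 of 10 lower and TRIM24 with 8 of 9 lower. Of all 10337 guides 5804 were lower here, as were 375 of the 662 TRIM guides. How many genes of the whole table lean as far to 1 side was not counted.

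Genes that work beside the family were described in the same way. The 7 measured relatives that carry other symbols (MID1, MID2, PML, MEFV, TRIML1, TRIML2 and RNF207) had median guide log2 fold changes from -0.41 (MID1) to 0.19 (PML) for 1500 against 0 µM. None was called by edgeR without the block, where 0% of all genes were. MID1 and MID2 are COS-box microtubule ligases and PML builds nuclear bodies. Of the 12 E2 enzymes known to serve TRIM ligases, such as the UBE2D group and UBE2N with its partners UBE2V1 and UBE2V2, none was called by that test in any comparison, where 0% of all genes were. For 1500 against 0 µM 8 of 12 lay below 0 (median -0.14), against 65.0% of all genes (median -0.08). In all 3 same-numbered pairs 4 of the 12 were lower and 0 higher, against 11.6% and 13.4% of all genes. UBE2N had the lowest level of the 12 at 0 µM, 85.3 ± 86.6 normalised CPM.

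By the order of genes in the RefSeq assembly, 26 of the 68 genes lie next to another member or with 1 protein-coding gene between, in 8 groups. The largest runs are TRIM31, TRIM40, TRIM10, TRIM15, TRIM26 and TRIM39 near the major histocompatibility complex, TRIM77, TRIM49, TRIM64B, TRIM49D1 and TRIM64, and TRIM5, TRIM6, TRIM34 and TRIM22. At 0 µM the means of the first run ranged from 768 (TRIM10) to 1436 (TRIM39) normalised CPM and those of the second from 427 (TRIM49) to 1062 (TRIM64B). The SD over libraries reached 956 in the first run (TRIM15), and whether neighbours are more alike than other members was not tested. Within the second run TRIM49D1 and TRIM64B were both lower at 1500 than at 0 µM in all pairs, relative to the median of all genes. By the same measure TRIM77 was lower in 2 pairs, and TRIM49 and TRIM64 in 1 pair each.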

How the data were processed

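DNA from 9 libraries of U251 cells, 3 at each of 3 temozolomide doses, was sequenced to count sgRNAs. Raw counts of each guide, as whole numbers with no guide sequence, are what the authors deposited, in 1 table. Per the submitters' processing notes, cutadapt 1.18 and MAGeCK 0.5.8 were used and hg19 was the build. What mismatches and filters were allowed was not given in the sources used here. Per the labels' protocols, libraries were built with a PCR-free kit. Because the replicate numbers may not mark separate cultures, intervals and exact tests may cover neither growth in culture nor sampling of cells.

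Guides that reached 10 counts in 3 or more of 9 libraries, and counts summed over all guides of a gene, were tested with edgeR 4.0.16 (R 4.3.3) by quasi-likelihood on the 6 libraries of each pair of doses, with TMM, no block, and Benjamini-Hochberg adjustment over the whole table at 0.05. Levels are TMM-normalised CPM computed here. DESeq2 1.42.0, limma 3.58.1, a replicate block, other size factors, other count minimums, all 9 libraries in the fit, leaving out each library and leaving out the most abundant guide were alternatives, and the code was tested on simulated data.

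The replicate numbers of the titles were taken to pair the samples, because deviations of guides from their group means correlated at 0.667 to 0.776 between same-numbered libraries (9 pairs; 0.657 to 0.783 across TRIM guides). Between the 18 others they correlated at -0.448 to -0.255. Deviations from a mean sum to 0 within a dose, so these negative values follow from the positive ones and add no evidence. The labels do not say what a number marks.

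The members, classes and lists were chosen with earlier results of these data known. Named genes were the 5 highest and 5 lowest at 0 µM, the 5 highest and 5 lowest guide medians per comparison among genes with at least 5 tested guides, and TRIM28, TRIM24, TRIM33, TRIM37, TRIM21, TRIM25, TRIM45, TRIM64B and TRIM69. Named guides were those called by any tool and the 3 of lowest edgeR p per direction. Other genes and guides were named for a pattern, after their values were seen.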

Additional observations from a re-analysis of the deposited data

How the results depend on the processing

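No TRIM gene was called under any alternative that was run: the replicate block, DESeq2's size factors, no count filter, a minimum of 50 counts, all 9 libraries in the fit, DESeq2, limma, the sum without the most abundant guide, or leaving out any library. Over all 1117 genes, calls under these alternatives came from edgeR with the block (1 gene, 1500 against 0 µM), from DESeq2 (1 each for 1500 against 0 and 1500 against 200 µM) and from DESeq2 with the block (3, 1 and 24 for 1500 against 0, 200 against 0 and 1500 against 200 µM). Numbers of genes higher or lower in all pairs from unscaled CPM, an alternative chosen after seeing the data, say nothing about stability, since centring each pair removes the scaling. TRIM guides called numbered 0 except with DESeq2 and the replicate block, which called 1 for 1500 against 0 µM and 3 for 1500 against 200 µM. The block changed no other call of a TRIM gene or guide.

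The family median of guide log2 fold changes for 1500 against 0 µM was -0.0168 with the replicate block and -0.154 to 0.0895 with 1 library left out. It was -0.251 to -0.0215 for 200 against 0 µM and -0.0564 to 0.187 for 1500 against 200 µM with 1 library left out. The share of counts held by TRIM guides differed by 0.158 percentage points for 1500 against 0 µM and by 0.180 for 1500 against 200 µM without the most abundant guide of each gene. With 1 library left out, its difference ran from -0.833 to -0.289 for 1500 against 0 µM, from -0.330 to 0.223 for 200 against 0 µM and from -0.691 to -0.223 for 1500 against 200 µM.

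The 52 log2 fold changes of named genes gave 832 values under alternatives, of which 109 had the sign turned and 0 passed the threshold. In limma on the median over guides, with and without the block, the value was 0.39 for TRIM23, 0.0353 for TRIM24, -0.0698 for TRIM33 and 0.0508 for TRIM45 (1500 against 0 µM). It was 0.0304 for TRIM21, 0.0208 for TRIM29, -0.85 for TRIM49B, -0.39 for TRIM61 and 0.26 for TRIM77 (200 against 0 µM). It was 0.26 for TRIM25, -0.31 for TRIM33, -0.11 for TRIM52, 0.66 for TRIM64B and 0.0247 for TRIM64C (1500 against 200 µM). Without the most abundant guide it was -0.0480 for TRIM21 (1500 against 0 µM). It was -0.0765 for TRIM43 and 0.33 for TRIM77 (200 against 0 µM). It was -0.0674 for TRIM49 and 0.0707 for TRIM64C (1500 against 200 µM). With 1 library left out, 39 of the 52 values had the sign turned at least once, 11 kept it but moved by over 1.5 times, and 2 stayed within 1.5 times (TRIM24 for 1500 against 0 µM and TRIM29 for 1500 against 200 µM). Ranges for 1500 against 0 µM were TRIM21 -0.24 to 0.43, TRIM23 -0.34 to 0.21, TRIM28 -0.13 to 0.50, TRIM31 -0.23 to 0.11 and TRIM33 -0.0760 to 0.30. Further ranges were TRIM37 -0.0781 to 0.44, TRIM39 -0.0564 to 0.26, TRIM45 -1.02 to 0.16, TRIM51 -0.14 to 0.55 and TRIM69 -0.57 to 0.0345. Further ranges were TRIM72 -0.23 to 0.13. Ranges for 200 against 0 µM were TRIM21 -0.38 to 0.35, TRIM22 -0.48 to 0.0588, TRIM28 -0.17 to 0.48, TRIM33 -0.13 to 0.25 and TRIM37 -0.29 to 0.26. Further ranges were TRIM43 -0.13 to 0.37, TRIM45 -1.22 to 0.0877, TRIM49B -0.0753 to 0.42, TRIM49D1 -0.51 to 0.18 and TRIM55 -0.42 to 0.18. Further ranges were TRIM61 -0.00210 to 0.59, TRIM69 -0.74 to 0.00152 and TRIM77 -0.52 to 0.42. Ranges for 1500 against 200 µM were TRIM21 -0.23 to 0.50, TRIM24 -0.0167 to 0.41, TRIM25 -0.22 to 0.14, TRIM28 -0.18 to 0.23 and TRIM33 -0.14 to 0.27. Further ranges were TRIM43 -0.14 to 0.37, TRIM45 -0.53 to 0.82, TRIM49 -0.13 to 0.28, TRIM52 -0.0329 to 0.0598 and TRIM64B -0.58 to 0.36. Further ranges were TRIM64C -0.12 to 0.0862, TRIM69 -0.29 to 0.50, TRIM71 -0.33 to 0.0221, TRIM73 -0.33 to 0.63 and TRIM77 -0.63 to 0.34. The 11 that kept the sign and moved ran as follows: TRIM25 0.17 to 0.46, TRIM49D1 -0.78 to -0.14, TRIM64B -0.96 to -0.23 and TRIM65 0.16 to 0.60 (1500 against 0 µM), TRIM24 -0.87 to -0.42, TRIM25 0.18 to 0.51, TRIM29 -0.33 to -0.10 and TRIM64B -0.83 to -0.12 (200 against 0 µM), and TRIM22 0.0684 to 0.62, TRIM37 0.0483 to 0.40 and TRIM72 -0.23 to -0.0379 (1500 against 200 µM). The cause was not tested. A count of 0 allows up to 3 counts, so guides near that floor carry no fold, and 3 libraries per dose with this spread between numbers limit every comparison.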
